A study of Ovis aries with 24 samples.

Results

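The subunits of mitochondrial oxidative phosphorylation were followed in the liver and the periventricular white matter (PVWM) of preterm lambs. Members were chosen by symbol: rows beginning NDUFA, NDUFB, NDUFC, NDUFS, NDUFV, UQCR, COX4, COX5, COX6, COX7, COX8 or ATP5, or named SDHA, SDHB, SDHC, SDHD or CYC1, without the NDUFAF assembly factors. The rule took 60 of the 27716 rows of each tissue's count table. Of these, 57 encode subunits: 36 of complex I, 4 of complex II, 1 of complex III, 2 of complex IV and 14 of complex V. The other 3 match by name only: NDUFA4L2, a paralog of the subunit NDUFA4, ATP5S, known as coupling factor B, and ATP5SL, which takes part in complex I assembly. A further 4 subunit or regulator genes carried under locus identifiers (ATP5IF1, ATP5MK, NDUFAB1 and ATP5F1E) lie outside the rule and are not counted among the members.

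Oxidative phosphorylation is carried out by 5 protein complexes of the inner mitochondrial membrane. Complex I takes electrons from NADH, complex II takes them from succinate, and complexes III and IV pass them on to oxygen while protons are pumped across the membrane. Complex V, the ATP synthase, lets the protons back through a rotor and makes ATP. Most subunits are encoded in the nucleus and imported. The hepatocyte, the main cell of liver, is rich in mitochondria, and in the developing white matter the chain serves glia, axons and blood vessels. The few subunits encoded in mitochondrial DNA were not analysed here.

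Poly-A messenger RNA was sequenced from 24 libraries, 4 per group and tissue. Unventilated lambs, of 127 or 128 days of gestation, received no ventilation, surfactant or budesonide. Lambs of the surfactant group were ventilated and received poractant alfa, which is surfactant from pig lung, into the trachea at 2.5 mL/kg. Lambs of the budesonide group were ventilated and given the same surfactant dose plus 0.25 mg/kg of the synthetic glucocorticoid budesonide. Both ventilated groups were 126 days old except for 1 male of 127 days in each, animal 007 with surfactant and animal 054 with budesonide, so that age nearly coincided with ventilation. Each ventilated group held 1 male and 3 females, and the unventilated group of each tissue 2 males, 1 female and 1 animal whose sex the label does not give. No ventilated lamb went without surfactant, so ventilation and surfactant cannot be told apart. The 4 libraries of a group and tissue are from 4 different animals, and 11 of 13 animals gave both tissues.

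Libraries held 16087620 to 23175121 counts in liver and 14929261 to 17532605 in PVWM. Levels are in CPM, the usual counts-per-million unit after scaling of the libraries, and changes are log2 differences ± SE from edgeR. A member was called where the p of edgeR's quasi-likelihood test, adjusted over all genes tested in that comparison, was under 0.05. After the filter on low counts 59 members were tested in liver and 60 in PVWM. NDUFA5, an accessory subunit of complex I, was the member left out in liver, at 0.129 to 0.389 CPM. The 12 hepatocyte markers summed to 220000 to 319000 CPM over the livers, and in PVWM the 10 oligodendrocyte markers to 956 to 17400 CPM and the 8 astrocyte markers to 5330 to 7820 CPM. Among surfactant livers, animals 049 and 051 stood apart at 113 and 142 CPM of the cytokine IL6, against 0.222 and 0.720 CPM in animals 007 and 032.

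Subunit mRNA was lower in the livers of ventilated lambs than in unventilated livers, mainly for complex I and for SDHC of complex II. Complexes III and IV held only 1 and 2 members, so they cannot be compared with complex I as wholes. With surfactant alone, 25 of 59 members were lower and 3 were higher, where 19.5% of all 16824 genes tested were called lower and 21.6% higher (edgeR). The median change over the 56 subunits tested was -0.33 on the log2 scale, against -0.02 over all genes. With surfactant and budesonide, 23 of 59 members were lower and 2 were higher, where 23.7% of all genes were lower and 23.3% higher, and the subunit median was -0.29 against 0.0. The count of higher members with surfactant was 0 without surfactant animal 032 and 1 without surfactant animals 049 or 051 or unventilated animals 057, 059 or 060. Both comparisons use the same 4 unventilated livers, so they are not independent of each other.

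SDHC, a haem-binding anchor that holds complex II in the membrane, showed the largest decrease of any subunit in both comparisons. Its level was 187, 173, 232 and 163 CPM in unventilated livers, 77.9, 70.9, 85.1 and 64.4 CPM with surfactant, and 62.3, 58.4, 60.7 and 67.7 CPM with budesonide. All 8 ventilated livers lay below the 4 unventilated ones. The change was -1.34 ± 0.15 with surfactant (edgeR adjusted p = 4.51e-05) and -1.60 ± 0.15 with budesonide (edgeR adjusted p = 9.42e-06). The 127-day animals 007 and 054 held 77.9 and 67.7 CPM of SDHC, against 187 and 173 CPM in the unventilated animals of 127 days, 057 and 058.

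The other 3 subunits of complex II did not follow SDHC to that extent. SDHA, the flavoprotein that oxidises succinate, was 102 ± 4.24 CPM (SD, n = 4) in unventilated livers, 84.8 ± 5.98 with surfactant and 90.7 ± 11 with budesonide, and was not called in either comparison. SDHB, the iron-sulfur subunit, differed by -0.28 ± 0.15 with surfactant, which was not called. With budesonide SDHB fell by 0.40 ± 0.15 (edgeR adjusted p = 0.0487), a call lost in 10 of 17 alternative fits, among them those without any 1 of the 4 budesonide livers or without unventilated animals 057, 058 or 059. SDHD, the other membrane anchor, ran the opposite way without being called, at 3.42, 2.56, 1.65 and 4.42 CPM in unventilated livers, 5.95, 5.34, 3.22 and 4.17 CPM with surfactant and 3.26, 5.33, 4.42 and 3.47 CPM with budesonide. In the sheep reference annotation SDHC overlaps another protein-coding gene and SDHD a pseudogene, and the sources used here do not give whether reads were counted by strand.

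**Figure D1:**
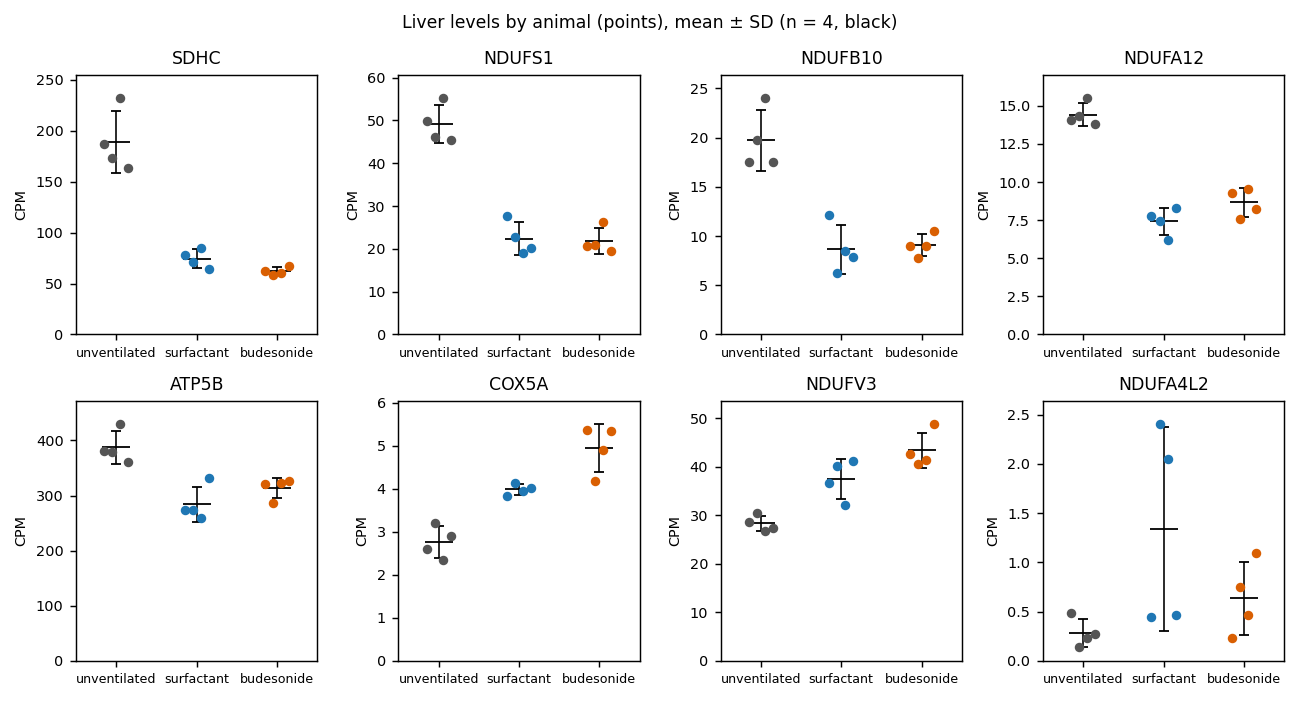
CPM of 8 members in each liver library (points) by treatment group, with the group mean and SD over 4 animals in black; the vertical axes start at 0. SDHC, NDUFS1, NDUFB10, NDUFA12 and ATP5B lie lower in both ventilated groups, COX5A and NDUFV3 lie higher, and NDUFA4L2 is raised in surfactant animals 032 and 049.

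In complex I, 20 of 35 tested subunits were lower with surfactant and 1 was higher, and 18 were lower and 1 higher with budesonide. Over all genes 19.5% were lower and 21.6% higher with surfactant, and 23.7% and 23.3% with budesonide. The medians over the complex were -0.39 and -0.46. Of the 7 core subunits, which carry the redox centres, 4 were lower in each comparison, and all 7 had a negative estimate. NDUFS1, a core subunit with iron-sulfur clusters on the path from NADH, held 49.8, 46.2, 55.2 and 45.5 CPM in unventilated livers, 27.7, 22.7, 19.0 and 20.2 CPM with surfactant and 20.7, 21.0, 26.2 and 19.5 CPM with budesonide. Both ventilated groups lay below the unventilated one and overlapped each other. NDUFS1 changed by -1.13 ± 0.16 with surfactant (edgeR adjusted p = 0.000201) and by -1.17 ± 0.16 with budesonide (edgeR adjusted p = 9.02e-05).

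NDUFV1, the core subunit that binds NADH, fell by 0.38 ± 0.13 on the log2 scale with surfactant (edgeR adjusted p = 0.0383). That call was lost in 11 of 17 alternatives, among them those without surfactant animals 032 or 051 or without any 1 unventilated animal, and with budesonide NDUFV1 was not called. NDUFV2, its iron-sulfur neighbour, showed the reverse order of calls: it was 40.0 ± 2.31 CPM in unventilated livers, 26.8 ± 3.19 with budesonide (log2 -0.58 ± 0.16, edgeR adjusted p = 0.0087), and it was not called with surfactant. Animal 007, at 39.9 CPM of NDUFV2, lay within the unventilated range of 37.2 to 42.0 CPM, while the other 3 surfactant livers held 26.4 to 31.0 CPM.

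Accessory subunits surround the core and are needed for its assembly and stability. Of 11 tested NDUFA accessory subunits 6 were lower with surfactant and 5 with budesonide, and of 13 NDUFB and NDUFC subunits of the membrane arm 8 and 7 were lower. None of these subunits was called higher in liver. The shares of all genes called lower were 19.5% with surfactant and 23.7% with budesonide, and those called higher 21.6% and 23.3%. NDUFA12 was 14.1, 14.3, 15.5 and 13.8 CPM in unventilated livers, 7.78, 7.44, 6.22 and 8.28 CPM with surfactant and 9.31, 7.57, 9.54 and 8.23 CPM with budesonide. It changed by -0.96 ± 0.15 and -0.74 ± 0.15 (edgeR adjusted p = 0.000455 and 0.00154). NDUFB10, in the membrane arm, was 17.5, 19.8, 24 and 17.5 CPM against 12.1, 6.24, 8.44 and 7.82 CPM with surfactant and 8.96, 7.80, 9.02 and 10.5 CPM with budesonide. Its changes were -1.19 ± 0.20 and -1.12 ± 0.20 (edgeR adjusted p = 0.00085 and 0.000783), and every ventilated liver lay below every unventilated one for both genes.

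Among other accessory subunits, NDUFB4 changed by -0.89 ± 0.16 and -0.71 ± 0.16, and NDUFB6 by -0.87 ± 0.21 and -1.35 ± 0.21, with surfactant and with budesonide. NDUFS6, a zinc-binding subunit of the peripheral arm, was low throughout, at 3.38 ± 0.672 CPM in unventilated livers against 1.55 ± 0.184 and 1.66 ± 0.227 CPM. NDUFS4, whose loss impairs complex I assembly, was 18.5 ± 2.42 CPM in unventilated livers, 12.4 ± 2.32 with surfactant and 9.92 ± 0.607 with budesonide. All 4 of these genes were called in both comparisons. Among the core subunits NDUFS8, an iron-sulfur protein, was 13.3 ± 2.22, 7.80 ± 1.38 and 7.13 ± 1.1 CPM.

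NDUFV3, an accessory subunit beside the NADH site, was the complex I subunit that rose. It was 28.7, 30.4, 26.8 and 27.4 CPM in unventilated livers, 36.6, 40.1, 32.1 and 41.2 CPM with surfactant and 42.7, 40.6, 41.4 and 48.7 CPM with budesonide. Both ventilated groups lay above the unventilated one and overlapped each other, and NDUFV3 changed by 0.41 ± 0.13 and 0.62 ± 0.13 (edgeR adjusted p = 0.0219 and 0.00175). The surfactant call was lost in 7 of 17 alternatives, including without surfactant animals 032 or 051 or unventilated animals 057, 059 or 060, and the budesonide call was kept in all 17.

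**Figure D2:**
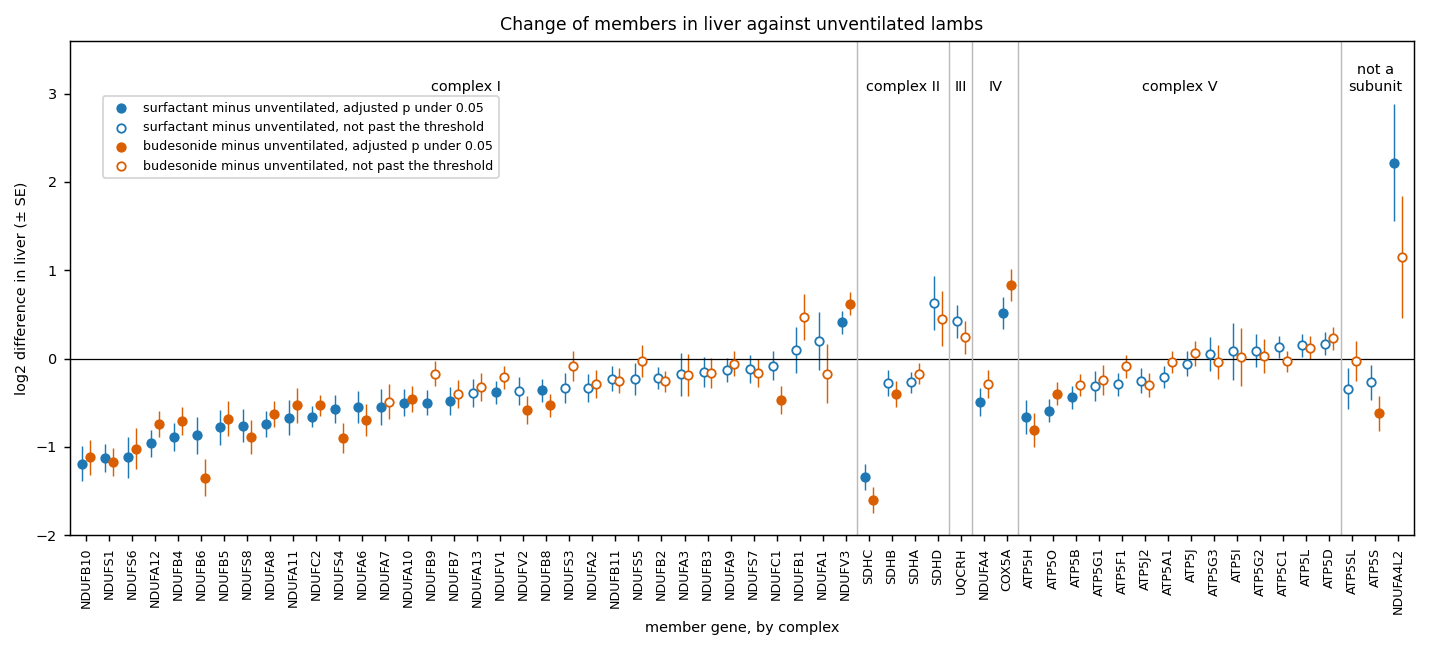
Log2 difference from unventilated livers (± SE, edgeR) of the tested members shown, grouped by complex, with surfactant in blue and with budesonide in orange; filled points are past the threshold. Most complex I points lie below 0, SDHC stands apart within complex II, and complex V points run from -0.81 (ATP5H with budesonide) to 0.23 (ATP5D with budesonide).

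Complexes III and IV were represented by 3 genes. The symbols CYC1, UQCRC1, UQCRFS1, COX4I1, COX4I2, COX6A1, COX6A2, COX7A1, COX7A2, COX7A2L and COX8A had no row among the members, so these complexes were covered only in part. UQCRH, the hinge subunit of complex III, was 16.9 ± 1.82 CPM in unventilated livers and 22.7 ± 3.75 and 20 ± 5.42 CPM in the ventilated groups, and was not called. COX5A, a nuclear-encoded subunit of cytochrome c oxidase, was 2.60, 3.2, 2.35 and 2.90 CPM in unventilated livers, 3.84, 4.14, 3.94 and 4.01 CPM with surfactant and 5.36, 4.19, 4.89 and 5.34 CPM with budesonide. It thus was higher in every ventilated liver, by 0.52 ± 0.18 with surfactant (edgeR adjusted p = 0.0354) and 0.83 ± 0.18 with budesonide (edgeR adjusted p = 0.00253). The surfactant call of COX5A was lost in 10 of 17 alternatives, among them those without surfactant animals 032, 049 or 051 or unventilated animals 057, 059 or 060. NDUFA4, once assigned to complex I and now to complex IV, fell by 0.49 ± 0.16 with surfactant (edgeR adjusted p = 0.0266), a call lost in 6 of 17 alternatives (without surfactant animal 032 or unventilated animals 057, 059 or 060 among them), and was not called with budesonide.

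Of the 14 ATP synthase subunits, 3 were lower with surfactant and 2 with budesonide, and none was higher. The surfactant count of 3 is near the share of all genes called lower (19.5%), and with budesonide that share was 23.7%. The medians over the complex were -0.13 and -0.04. ATP5B, the catalytic beta subunit, was 381, 379, 429 and 360 CPM in unventilated livers, 274, 274, 259 and 331 CPM with surfactant and 321, 287, 322 and 327 CPM with budesonide. The change was -0.44 ± 0.13 with surfactant (edgeR adjusted p = 0.0157) and -0.30 ± 0.13 with budesonide, which was not called although all 4 budesonide livers lay below the unventilated ones. ATP5B passed with budesonide in 3 of 17 alternatives, by DESeq2, with 2 groups only and without surfactant livers 049 and 051, with edgeR or DESeq2 adjusted p from 0.0341 to 0.392 over the 17. ATP5A1, the alpha subunit that pairs with it in the head, was 110 ± 6.93, 95.4 ± 9.63 and 107 ± 9.11 CPM and was not called.

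In the peripheral stalk, which holds the head still against the rotor, ATP5H (-0.66 ± 0.19 and -0.81 ± 0.19) and ATP5O (-0.59 ± 0.13 and -0.40 ± 0.13) were lower in both comparisons. ATP5H was 19.9 ± 2.32 CPM in unventilated livers, and animal 054, at 16.1 CPM, was the budesonide liver nearest to them, the others holding 8.94 to 10.5 CPM. ATP5O was 45.1 ± 5.82 CPM in unventilated livers, 29.9 ± 1.20 with surfactant and 34.2 ± 2.15 with budesonide. The ATP5O call with budesonide was lost without budesonide animal 048 or unventilated animal 059. None of the 3 c-ring genes or the 3 membrane accessory genes was called, with changes between -0.31 and 0.15.

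NDUFA4L2, a paralog of NDUFA4 known as a target of hypoxia-inducible factor, was higher with surfactant by 2.22 ± 0.66 (edgeR adjusted p = 0.0172), from low counts. It was 0.482, 0.137, 0.235 and 0.268 CPM in unventilated livers, 0.445, 2.40, 2.05 and 0.463 CPM with surfactant and 0.233, 0.745, 0.465 and 1.09 CPM with budesonide. Animals 032 and 049 were high, animals 007 and 051 lay within the unventilated range, and the call was lost without animal 032 and without animal 049. In the reference annotation NDUFA4L2 overlaps other genes, SHMT2, STAC3 and R3HDM2 among them. Of the genes under locus identifiers, ATP5MK, a small ATP synthase subunit, rose by 1.05 ± 0.23 with surfactant (edgeR adjusted p = 0.00342), and ATP5IF1, the ATP synthase inhibitor, was not called.

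By library, the median subunit differed from the unventilated mean by -0.40 to -0.27 on the log2 scale in the 4 surfactant livers and by -0.45 to -0.07 in the 4 budesonide livers. Unventilated livers ranged from -0.13 to 0.12. Animal 054, at -0.07, was the budesonide liver inside that range, and it held the highest level of its group for 38 of the 60 members. Summed over all 57 subunits, the untested NDUFA5 included, unventilated livers held 1962 to 2324 CPM, surfactant livers 1586 to 1682 and budesonide livers 1535 to 1854. Ventilated and unventilated animals did not overlap. In bulk tissue, fewer cells of a type and less RNA per cell cannot be told apart.

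**Figure D3:**
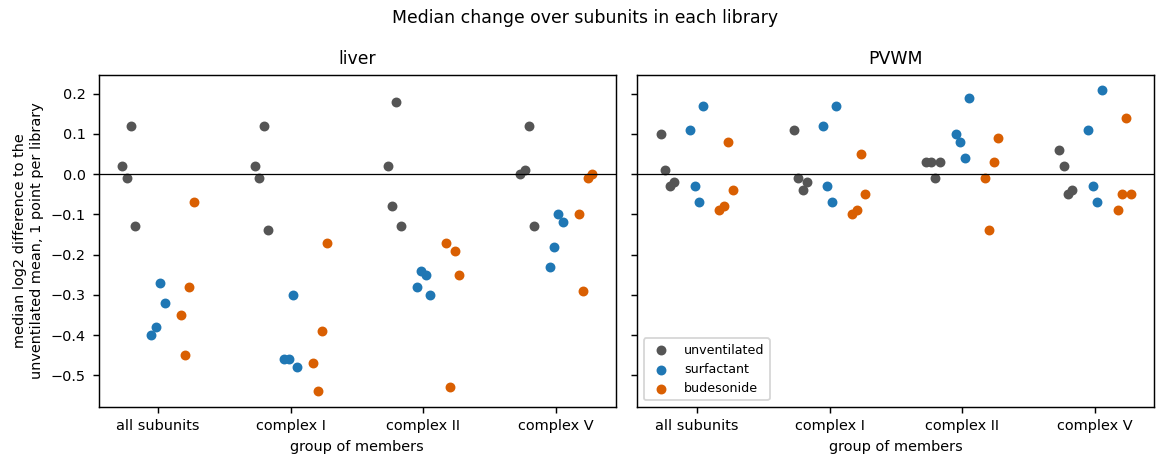
Median log2 difference to the unventilated mean over all subunits and over complexes I, II and V, 1 point per library, in liver (left) and PVWM (right). In liver the ventilated libraries lie below the unventilated ones for complex I except that animal 054 comes near them at -0.17. In PVWM the groups overlap, except for complex II with surfactant (0.04 to 0.19) against unventilated (-0.01 to 0.03).

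Gestational age and some cell markers also differed between ventilated and unventilated livers. With age as a covariate, 3 members stayed lower with surfactant (NDUFA12, NDUFS1 and SDHC) and 0 higher, and 4 stayed lower (NDUFB6, NDUFS1, NDUFS6 and SDHC) and 1 higher (NDUFV3) with budesonide, while the subunit medians were -0.23 and -0.25. The share of all genes called in that fit is not given here, so these counts are not read as particular to the members. Without surfactant livers 049 and 051, an alternative chosen after seeing the data, 16 members were lower with surfactant and the subunit median was -0.40. The 11 neutrophil and monocyte markers summed to 90 to 136 CPM in unventilated, 185 to 477 in surfactant and 231 to 308 in budesonide livers, with 7 and 4 called higher and 0 at 0 counts throughout a group. Endothelial markers (11 genes) summed to 588 to 782, 837 to 1080 and 813 to 980 CPM, with 5 higher and 0 lower with surfactant and 3 in each direction with budesonide. Hepatocyte markers (12 genes) summed to 220000 to 285000, 283000 to 319000 and 235000 to 291000 CPM, with 3 higher in each comparison, the fibrinogen chains FGA, FGB and FGG, and 1 lower with surfactant and 3 lower with budesonide. The 10 erythroid markers analysed summed to 397 to 2560, 675 to 1720 and 1410 to 3380 CPM, and of the 9 tested 0 were called in either comparison. Of 9 macrophage markers 2 were higher and 2 lower with surfactant, and 1 and 3 with budesonide. Of 9 mesenchymal markers 1 was higher with surfactant and 4 with budesonide, with 0 lower. Of 6 cholangiocyte markers 2 were higher with surfactant and 2 lower with budesonide. Over all genes 21.6% were higher and 19.5% lower with surfactant, and 23.3% and 23.7% with budesonide. The hepatocyte and endothelial counts with budesonide lie near these shares. The part of these cell types in the subunit differences was not tested.

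Between the ventilated groups, adding budesonide was not followed by a called change of any member in liver. The count was 0 of 59 in both directions by edgeR and 0 by DESeq2, where edgeR called 4.01% of all genes higher and 7.85% lower. At an unadjusted p under 0.05 there were 3 members, NDUFB6 (-0.48 ± 0.21), NDUFC1 (-0.39 ± 0.16) and NDUFB9 (0.33 ± 0.14). Over the 56 subunits the differences ran from -0.48 to 0.37 with a median of 0.05 and a median SE of 0.16. SDHC differed by -0.26 ± 0.14 and NDUFS1 by -0.03 in the same comparison. Leaving out surfactant animal 051 gave 1 called member.

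In PVWM the members showed almost no called change, where few of all genes were called either. Surfactant against no ventilation gave 0 of 60 members in either direction by edgeR, 0 by DESeq2 and 0 at an unadjusted p under 0.05, where 1.35% of 18616 genes were higher and 0.698% lower. Changes of the 57 subunits lay between -0.17 and 0.25, with a median SE of 0.10. SDHC was 48.0, 48.9, 47.3 and 49.3 CPM in unventilated PVWM, 50.1, 44.2, 39.8 and 48.5 CPM with surfactant and 47.5, 44.4, 45.4 and 49.2 CPM with budesonide. NDUFS1 was 117, 144, 119 and 130 CPM, 119, 130, 119 and 125 CPM, and 117, 118, 121 and 123 CPM in the same order. For both genes the groups overlapped.

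With budesonide against no ventilation, 1 of 60 members was lower in PVWM and 0 were higher, where 3.71% of all genes were lower and 4.35% higher by edgeR. The gene was NDUFA4L2, which in brain is found mainly in pericytes of the vessel wall. It was 9.27, 7.64, 6.58 and 8.11 CPM in unventilated PVWM, 7.16, 4.59, 5.52 and 6.18 CPM with surfactant and 2.79, 4.92, 3.29 and 6.48 CPM with budesonide. The budesonide animals all lay below the unventilated ones (log2 -0.86 ± 0.24, edgeR adjusted p = 0.0499), and the call was lost in 12 of 16 alternatives, with adjusted p from 0.012 to 0.564. It was lost without budesonide animals 031, 048 or 050 and without each of the 4 unventilated animals. The 10 endothelial and pericyte markers summed to 436 to 517, 389 to 716 and 355 to 483 CPM in the 3 groups, with 1 called lower, and the 10 microglia and macrophage markers to 268 to 280, 216 to 302 and 124 to 156 CPM, with 6 called lower and 1 higher. Their part in the NDUFA4L2 difference was not tested.

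Budesonide against surfactant gave 0 of 60 members in PVWM in either direction by edgeR and 0 by DESeq2, where 0.591% of genes were higher and 0.387% lower. Subunit differences had a median of -0.08 with 48 of 57 below 0, against a median of -0.01 over all genes. That subunit median depended on single libraries, at -0.03 without surfactant animal 051 and -0.13 without surfactant animal 049. The 4 members at an unadjusted p under 0.05, ATP5G1, NDUFA3, NDUFB9 and NDUFS8, were all lower, with log2 differences from -0.36 to -0.20 (edgeR adjusted p = 0.303 to 0.361). NDUFA3 was 23.1, 19.6, 22.7 and 21.1 CPM with budesonide against 27.8, 23, 26.7 and 33.5 CPM with surfactant, ranges that overlap.

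Unventilated animal 057 stood apart in PVWM for some subunits. NDUFV2 was 107 CPM in that library against 198 to 210 CPM in the other 3, NDUFA5 was 4.30 against 10 to 11.3 CPM, and NDUFB6 was 24.9 against 35.7 to 40.5 CPM. ATP5S was 6.93 against 14.6 to 17.5 CPM. The same library held the highest level of its group for 36 of the 60 members.

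**Figure D4:**
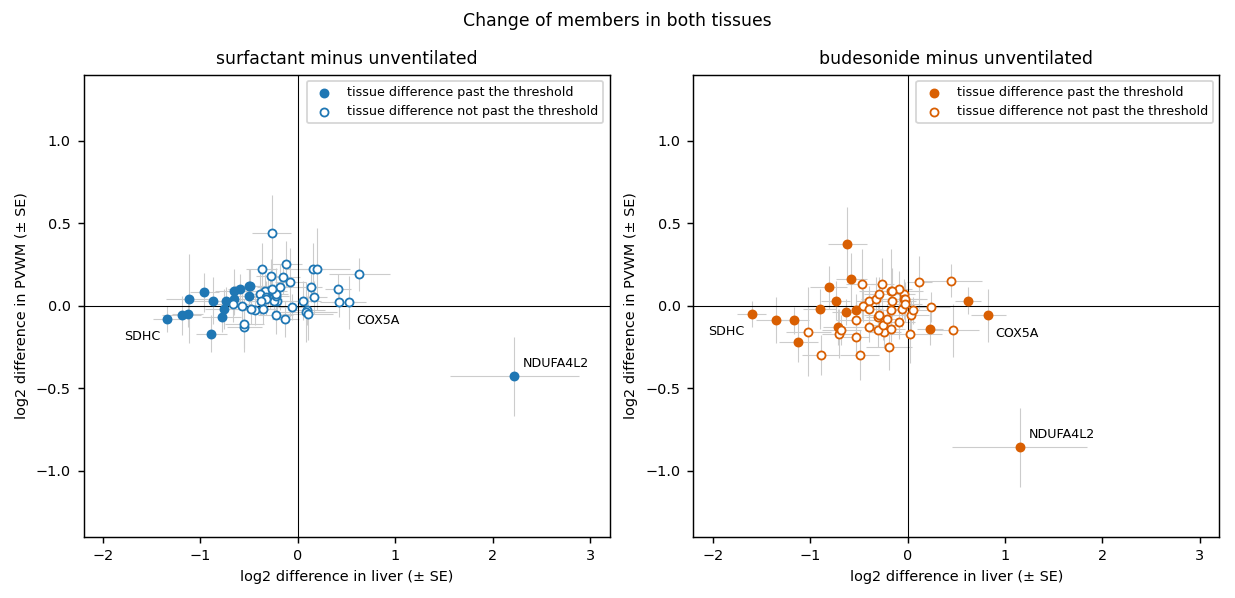
Log2 difference from unventilated lambs in liver (horizontal) and PVWM (vertical), each ± SE, for the members shown, tested in both tissues, with surfactant (left) and with budesonide (right); filled points passed the test of the tissue difference. The points spread along the liver axis and lie near 0 on the PVWM axis, apart from NDUFA4L2.

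The difference between tissues was tested directly, by subtracting the change in PVWM from that in liver. For surfactant against no ventilation, 17 of 60 members were lower in liver relative to PVWM and 1 was higher, where 11.2% of 20010 genes were lower and 14.6% higher by edgeR. With the animal as a block, 8 remained lower, and the share of all genes called in that fit is not given here. The 5 members with the smallest p in that direction were SDHC (-1.18 ± 0.15, edgeR adjusted p = 1.08e-05), NDUFS1 (-1.01 ± 0.16, 9.11e-05), NDUFA12 (-0.96 ± 0.19, 0.000733), NDUFB10 (-1.05 ± 0.23, 0.00184) and NDUFC2 of the membrane arm (-0.63 ± 0.14, 0.00243). All 5 kept the call with the animal block. NDUFA4L2 was the member higher in liver relative to PVWM, by 2.74 ± 0.68 (edgeR adjusted p = 0.00525). The count of higher members was 2 without liver animal 007, without liver animal 049 and without PVWM animal 057.

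For budesonide against no ventilation, 12 members were lower in liver relative to PVWM and 4 were higher, where 13.6% of genes were lower and 16.2% higher. With the animal as a block these were 8 and 2, again without a share of all genes for that fit. SDHC differed by -1.47 ± 0.15 (edgeR adjusted p = 4.86e-07), NDUFB6 by -1.19 ± 0.24 (edgeR adjusted p = 0.000784) and NDUFS1 by -1.0 ± 0.16 (edgeR adjusted p = 7.17e-05). NDUFS4 differed by -0.80 ± 0.20, a call lost with the block (-0.72, edgeR adjusted p = 0.0647). The 4 higher members were COX5A (0.96 ± 0.23), NDUFV3 (0.66 ± 0.15), NDUFA4L2 (2.08 ± 0.71) and ATP5D (0.44 ± 0.16), of which COX5A and NDUFV3 kept the call with the block. Without liver animals 054, 059 or 060, or PVWM animals 031 or 057, 2 members were higher. With 1 library left out at a time the lower count ran from 8, without liver animal 048, to 15, without PVWM animal 057.

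For budesonide against surfactant 1 member passed the tissue test, NDUFB9 of complex I, at 0.54 ± 0.14 (edgeR adjusted p = 0.0377), and 0 were lower, where 1.41% of genes were higher and 2.0% lower. NDUFB9 in liver was 27.1, 23.6, 22 and 26.6 CPM with surfactant and 32.9, 26.4, 32.0 and 34.0 CPM with budesonide, ranges that overlap. The call was lost in 14 of 21 alternatives, the animal block among them, and without any 1 of the libraries of liver animals 031, 032, 049, 050 and 054 or PVWM animals 007, 031, 048, 049, 051 and 054.

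Before treatment is considered, single subunits differed between the tissues, with calls among the members no more frequent than over all genes. In unventilated lambs, 16 of 60 members were higher in liver than in PVWM and 22 were lower, where 36.1% of genes were higher and 41.7% lower, and the subunit median of -0.09 lay near the median over all genes of -0.11. With the animal as a block 10 members were higher and 17 lower, and the all-gene shares of that fit are not given here. Levels in this comparison are on the common scale of the 24 libraries, which differs from the scale within a tissue.

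In complex II the membrane anchors differed in opposite directions. SDHC was 246, 235, 292 and 216 CPM in unventilated liver (animals 057, 058, 059 and 060) and 37.4, 36.6, 35.5 and 37.2 CPM in PVWM (animals 057, 058, 060 and 061), a difference of 2.75 ± 0.11 (edgeR adjusted p = 6.4e-16). SDHD was 4.52, 3.46, 2.07 and 5.86 CPM in liver and 14.2, 18.7, 19.0 and 17.9 CPM in PVWM, a difference of -2.12 ± 0.23 (edgeR adjusted p = 1.49e-08). Neither gene's levels overlapped between the tissues. The annotation overlaps given above for SDHC and SDHD hold for this comparison too, and their part in it was not tested. SDHA (0.47 ± 0.11) and SDHB (0.52 ± 0.12) were both moderately higher in liver.

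In complex I, NDUFA5 was 0.318, 0.495, 0.295 and 0.473 CPM in liver against 3.34, 8.27, 7.52 and 8.50 CPM in PVWM, a difference of -4.09 ± 0.30 (edgeR adjusted p = 1.75e-11). NDUFA3 (-1.59 ± 0.19) and the core subunit NDUFV2 (-1.36 ± 0.16) were also lower in liver. NDUFS6 (0.83 ± 0.25), NDUFB11 (0.72 ± 0.12) and NDUFA2 (0.71 ± 0.13) were higher. In complex V, ATP5G2, which encodes the c-ring protein from a different gene than ATP5G1 and ATP5G3, was lower in liver (log2 -1.37 ± 0.14, edgeR adjusted p = 6.2e-09), while ATP5G3 was higher by 0.49 ± 0.16 and ATP5G1 was not called. UQCRH (-0.78 ± 0.15), COX5A (-0.94 ± 0.17) and NDUFA4 (-0.74 ± 0.13) were lower in liver. NDUFA4L2 was lower in liver (log2 -4.00 ± 0.53), at 0.186 to 0.636 against 4.94 to 7.22 CPM. In the reference annotation NDUFA3, NDUFA2, UQCRH and NDUFA4L2 overlap other protein-coding genes, and ATP5G2 overlaps a non-coding RNA gene and a pseudogene. Whether reads were counted by strand is not given, and the part of the overlapping genes in these tissue differences was not tested.

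**Figure D5:**
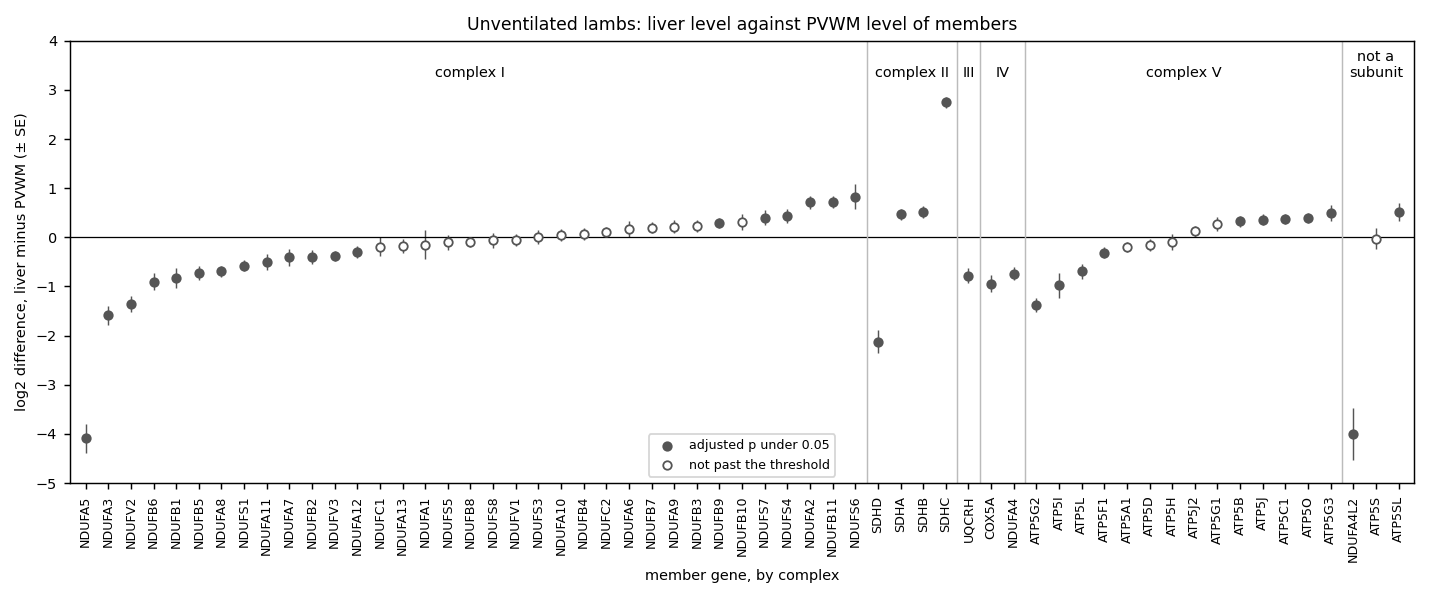
Log2 difference of unventilated liver minus unventilated PVWM (± SE, edgeR, 24-library fit) for the members shown, by complex; filled points are past the threshold. SDHC and SDHD lie at opposite ends of complex II, and NDUFA5 and NDUFA4L2 are lowest in liver relative to PVWM.

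Genes that build and feed the chain were described from lists compiled for this purpose. Their counts in liver stand against 19.5% of all genes lower and 21.6% higher with surfactant, and 23.7% lower and 23.3% higher with budesonide, and nothing particular to a list is read from a count near these shares. Of 27 assembly factors tested in liver, 8 were lower and 2 higher with surfactant, and 8 were lower and 6 higher with budesonide, the latter both near the all-gene shares. ATPAF1, which assembles the head of complex V, fell by 1.07 with surfactant, and NUBPL, an iron-sulfur assembly factor of complex I, fell by 1.57 with budesonide. PET117, needed for complex IV, rose by 1.41 and 1.49, and NDUFAF6, a complex I assembly factor, by 0.99 and 1.76. NDUFAF6 (0.78 ± 0.18, edgeR adjusted p = 0.0192) and NDUFAF2 (1.09 ± 0.23, edgeR adjusted p = 0.0112) were also higher with budesonide than with surfactant in liver, where the members themselves had no call.

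Of 16 electron donors and carriers outside the complexes, which include the enzymes of ubiquinone synthesis, 8 were lower with surfactant and 0 higher, and 8 were lower and 2 higher with budesonide. COQ9, a lipid-binding protein of ubiquinone synthesis, fell by 0.69 and 0.73, and COQ5 fell by 1.08 with surfactant. In the tricarboxylic acid cycle 4 of 14 genes were lower and 2 higher with surfactant, and 3 lower and 2 higher with budesonide, where the all-gene shares are 19.5% and 21.6%, and 23.7% and 23.3%. SUCLG1 fell by 0.69 and 0.54, whereas OGDH rose by 1.48 ± 0.19 with budesonide (edgeR adjusted p = 6.02e-05) and was 248 ± 44.0 CPM there against 130 ± 24.6 CPM with surfactant (edgeR adjusted p = 0.00867).

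Of 17 regulators of mitochondrial biogenesis and transcription in liver, 3 were higher and 4 lower with surfactant and 5 were called in each direction with budesonide, counts near the all-gene shares of 21.6% higher and 19.5% lower, and 23.3% and 23.7%. PPARGC1A, a coactivator that promotes expression of respiratory chain genes, was 125 ± 58.6 CPM with surfactant against 33.0 ± 8.24 CPM in unventilated livers (log2 1.92 ± 0.31, edgeR adjusted p = 0.000534). PPRC1, a related coactivator, rose by 1.63 and 1.62, and TFB2M, a factor for transcription of mitochondrial DNA, by 1.78 and 2.02. SIRT3, of the same list, went the other way with budesonide (log2 -0.89 ± 0.18, edgeR adjusted p = 0.00142). Outer membrane, import and chaperone genes were 6 higher and 2 lower of 17 with surfactant and 9 higher and 2 lower with budesonide (all genes: 21.6% higher and 19.5% lower, and 23.3% and 23.7%), among them TOMM20 (0.64 and 0.97), TIMM17A (1.4 and 1.76) and PHB2 (0.60 and 0.76). In PVWM these 5 lists together held 2 called genes over the 3 comparisons, NDUFAF7 (0.66 ± 0.17) and PPARA (0.59 ± 0.15), both higher with budesonide than without ventilation. In that comparison 27, 16, 14, 18 and 17 genes of the lists were tested, and 4.35% of all genes were higher and 3.71% lower. Nothing particular to the lists is read from this count.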

How the data were processed

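The authors deposited whole-number read counts per gene for 12 liver and 12 PVWM libraries. Per the submitters' processing notes, Bowtie2, featureCounts and edgeR were used; the sources used here do not give their versions and settings, the genome build or strand handling. Per the labels' protocols, total RNA was poly-A selected. Groups, ages, sexes and animal numbers come from the labels.

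Counts were analysed in R 4.3.3 with edgeR 4.0.16 (glmQLFit, glmQLFTest, filterByExpr, trimmed mean of M values scaling, robust quasi-likelihood fit of the 3 groups of a tissue, 16824 genes in liver and 18616 in PVWM) and, as an alternative, DESeq2 1.42.0. P-values were adjusted by Benjamini-Hochberg over all genes tested in a comparison, never over the members alone. SE was obtained from the quasi-likelihood F, as |log2 change| over its root. For log2 levels of single libraries the prior count was 2. The tissue comparisons come from 1 edgeR fit of all 24 libraries with 6 groups (20010 genes). For each tissue, 23 rows whose symbol had become a calendar date, with 0.092 to 0.282% of counts, stayed in the fits within a tissue and were left out of the fit of both, for which 27693 rows were shared. Same-numbered liver and PVWM libraries are of 1 animal; once group means were subtracted, 11 pairs correlated at 0.0794 to 0.198, 6 of them above 0.1, and the animal block was an alternative fit. The code was tested on simulated data.

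The members and gene lists were chosen with earlier results of these data known. A member not reported here by name is left out of the plots by gene and stays in the counts and medians. Members are named where, in a comparison, they were among the 3 called members per complex and direction with the smallest adjusted p, or the 6 per direction with the largest change and a mean of at least 1 CPM; for tissue tests, the 5 per direction with the smallest p; SDHA, SDHB, SDHC, SDHD, NDUFA4, NDUFA4L2, NDUFS1, NDUFV1, COX5A, ATP5A1, ATP5B, ATP5IF1 and 11 further symbols with no row among the members were eligible whatever their result. For each other list up to 3 called genes with the smallest adjusted p are eligible. NDUFV2 and NDUFS8 in liver, the genes given for PVWM animal 057, and SDHB, NDUFS6, ATP5G1, ATP5G3, UQCRH, COX5A, NDUFA4 and NDUFA4L2 between unventilated tissues were added after their values were seen, as was ATP5MK. Alternatives were DESeq2 with median-ratio size factors, RLE scaling, no filter, scaling without the 10 most abundant genes, a non-robust fit, only the groups compared, age or sex as covariate, the animal block, and each library left out in turn. The sex of liver animal 060 was taken from its PVWM label for the sex fit, and PVWM animal 061 was left out of it. Of 60 members, 48 matched 1 gene of the reference annotation ARS-UI_Ramb_v3.0, of which 9 overlap another gene there. ATP5G2, NDUFA2, NDUFA3, NDUFA4L2, NDUFS4, SDHC, SDHD and UQCRH are among these. The coordinates of the annotation served for that overlap alone. Counts on small subunit genes can include reads of near-identical pseudogene copies.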

Additional observations from a re-analysis of the deposited data

Results flagged for a closer look

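Of 210 groups of 4 library values tested, 12 held a library far from the other 3, where chance gives about 1 in 20. In liver these were budesonide animal 048 for ATP5B (287 CPM), budesonide animal 054 for NDUFB11 (36.5 CPM), NDUFB6 (5.02 CPM), NDUFS3 (26.2 CPM) and UQCRH (28.1 CPM), unventilated animal 060 for ATP5H (16.4 CPM), and surfactant animal 032 for NDUFB4 (8.46 CPM). In PVWM they were budesonide animal 050 for ATP5O (68.1 CPM), surfactant animal 049 for NDUFB1 (4.18 CPM) and unventilated animal 057 for NDUFV2 (107 CPM). Surfactant liver 049 was set apart for the complex I median (log2 -0.30 to the unventilated mean), and unventilated PVWM 060 for the complex II median (-0.01). Animal 054 accounted for 4 of the liver entries and was the highest of the budesonide livers in each of them.

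Several named members passed the edgeR test of the tissue difference, in which the PVWM change is subtracted from the liver change on the log2 scale. For surfactant against no ventilation they were NDUFA12 (-0.96), NDUFB10 (-1.05), NDUFC2 (-0.63), NDUFS1 (-1.01), SDHC (-1.18) and NDUFA4L2 (2.74). For budesonide against no ventilation they were NDUFA12 (-0.69), NDUFB6 (-1.19), NDUFS1 (-1.0), NDUFS4 (-0.80), SDHC (-1.47), ATP5D (0.44), COX5A (0.96), NDUFV3 (0.66) and NDUFA4L2 (2.08). For budesonide against surfactant it was NDUFB9 (0.54).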

How the results depend on the processing

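Of 126 named results 52 were called; 30 of these kept the call under every alternative run, 22 lost it under at least 1, and 0 reversed. Of the 74 not called, 4 gained a call under at least 1: ATP5B in liver with budesonide, and COX5A, NDUFV3 and UQCRH in the tissue difference for surfactant. Gestational age as a covariate left 0 members higher and 3 lower with surfactant in liver and 1 higher and 4 lower with budesonide; age nearly coincides with ventilation. Fitting only the 2 groups left 0 higher with surfactant. Without livers 049 and 051 (chosen after seeing the data) 16 were lower. In PVWM the 1 member lower with budesonide became 0 without the filter, without the robust fit, with 2 groups only and with age or sex. For the tissue differences, DESeq2 gave 2 higher members for surfactant, and RLE factors and no filter each gave 0 for budesonide against surfactant. With the replicate block the tissue differences held 8 lower members for surfactant, 2 higher for budesonide and 0 for budesonide against surfactant, and 10 members were higher in unventilated liver than PVWM; the causes of these moves were not tested. The block changed no other count by over 1.5 times. The share of all genes called under each alternative is not given here, so these counts are not read as particular to the members.

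Leaving out 1 library at a time gave, in liver, 0 to 4 higher and 17 to 25 lower members with surfactant, 2 higher and 17 to 25 lower with budesonide, and 0 to 1 lower between them. In PVWM it gave 0 to 1 lower with budesonide. For the tissue differences it gave 1 to 2 higher and 12 to 18 lower for surfactant. For budesonide it gave 2 to 4 higher and 8 to 15 lower, and between the ventilated groups 0 to 1 higher. The largest shift of the all-gene median by another scaling was -0.057, in a tissue difference. At these depths and 4 animals per group the median SE of a subunit was 0.16 in liver and 0.10 in PVWM, which limits the size of change that can be told from 0.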
